A study of Rattus norvegicus with 9 samples.

Results

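YWCH-4A was compared with vehicle in NRK-49F cells treated with TGF-β1, across all genes of the deposited count table. NRK-49F is a long-established rat line of kidney fibroblasts. The comparison used 6 of the 9 RNA-seq libraries of the series, which were chosen by their labels alone. Vehicle libraries 1 to 3 came from cells given TGF-β1 and vehicle, and YWCH-4A libraries 1 to 3 from cells given TGF-β1 and the compound YWCH-4A. The other 3 libraries came from cells given TGF-β1 and the compound YEXX-2A, and they entered the same fit and were used for direct differences between the compounds. All groups carried the genotype label wt and shared TGF-β1, with an incubation of 48 h. No TGF-β1-free cells were analysed here. Both compounds are known here by code names, and the labels give neither dose nor time for them, so a difference between them is a difference between these libraries and not at a matched dose. The labels state 3 biological replicates per condition and do not say whether these were separate cultures. The p-values of the fit rest on the spread between libraries within groups, estimated jointly over all 9 libraries. This spread may be technical.

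TGF-β1 is a secreted cytokine whose receptors signal through SMAD transcription factors. In kidney fibroblasts it is known to drive the myofibroblast state, in which cells assemble contractile actin bundles and secrete fibrillar collagen, the matrix that accumulates in kidney fibrosis. Fibroblasts can also take up an inflammatory state in which NF-κB, a family of transcription factors held in the cytoplasm by IκB proteins, drives chemokine, cytokine and protease genes. The series title names a search for small natural molecules against kidney fibrosis, and the comparison addresses what YWCH-4A leaves different in cells that have received TGF-β1.

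Total counts ran from 14062768 to 15813023 in the vehicle libraries and from 15145100 to 20014139 in the YWCH-4A libraries. Of 22050 genes in the table, 11473 had enough counts to be tested. The vehicle libraries were less alike than the others. Their biological coefficient of variation was 16.7%, against 3.66% among YWCH-4A libraries and 7.39% among YEXX-2A libraries, and it was 4.68% with vehicle library 2 left out. Levels are given as CPM, counts scaled to a common depth, on TMM-scaled library sizes and in the order of libraries 1 to 3 of a group, and changes as log2 fold changes of YWCH-4A over vehicle ± standard error from edgeR's quasi-likelihood fit, with Benjamini-Hochberg adjusted p-values over all 11473 genes. A gene is said to have risen or fallen where its adjusted p was under 0.05. In RNA from whole cultures, fewer cells of a kind and less RNA per cell cannot be told apart.

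Of the 11473 genes, 3516 (30.6%) were called at an adjusted p under 0.05, 1801 higher (15.7%) and 1715 lower (14.9%) with YWCH-4A. The change was at least 2-fold for 706 of them (6.15%), 368 higher (3.21%) and 338 lower (2.95%). At larger sizes rises outnumbered falls. Rises of at least 4-fold numbered 135 and falls 72, rises of at least 8-fold 64 and falls 20, and rises of at least 16-fold 21 and falls 7. These counts include genes that were tested only because 1 group was high, such as Cd6 and Col11a1. They were not repeated without such genes, so the excess of rises is a description only. Without vehicle library 2 the fit called 4588 genes, and 3369 of the 3516 were among them in the same direction. Groups did not overlap in CPM for 5275 genes (46%), among them 3486 of the 3516 called, so a lack of overlap adds little to a call. The median log2 fold change of all tested genes was 0.03. Rises and falls counted in the gene lists are to be read beside the 15.7% and 14.9% of all tested genes. Direct tests against YEXX-2A called 16.2% of all tested genes higher and 15.1% lower with YWCH-4A, the shares for list counts against YEXX-2A. Of the genes in the lists described here, 15 passed the filter on low counts only through the YWCH-4A libraries (Angptl4, Ccl20, Ccl3, Gch1, Il1a, Il1b, Itgb7, L1cam, Mmp12, Nr4a3, Pdgfb, Pla2g5, Ptger4, Tlr2 and Tnfsf10) and 6 only through the vehicle libraries (Ankrd37, Col11a1, Mfap4, Ncan, Pappa2 and Wif1). Such a gene had to differ between groups to be tested, so the plot of the lists leaves these out. Counts without them, an alternative chosen after seeing the data, are given for the lists whose number of calls changes. When the deposited FPKM values were tested as they stand, as log2(FPKM + 1), the median shifted by 0.17 and 78.1% of calls were higher, against 51.2% on counts.

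**Figure D1:**
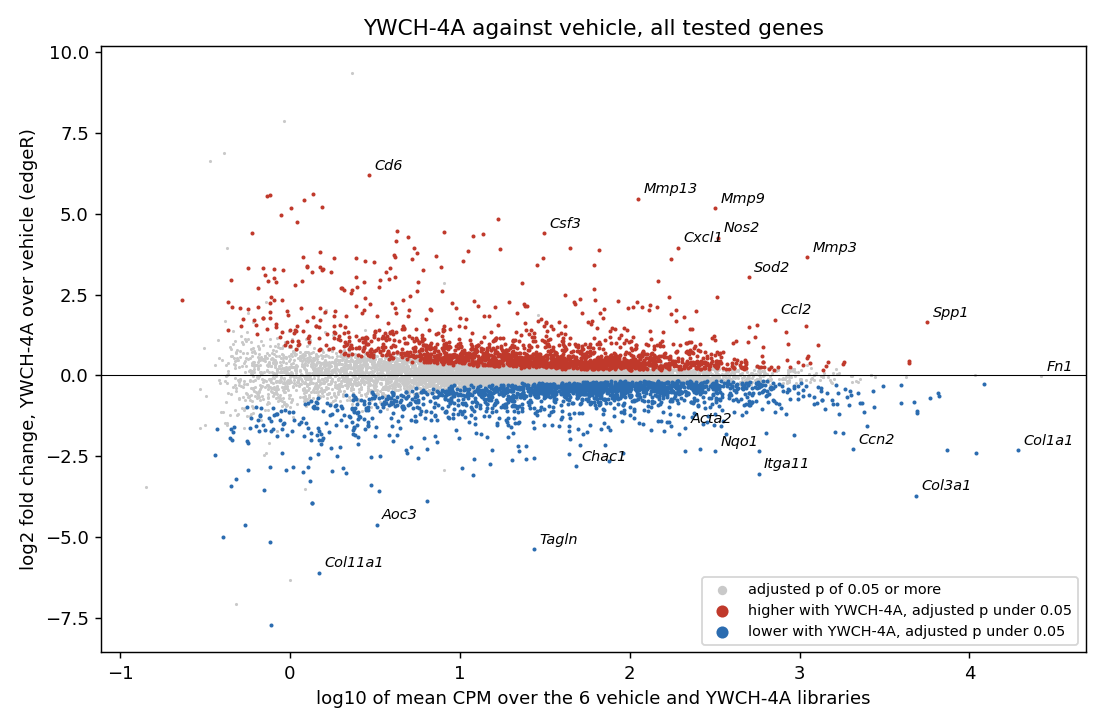
Log2 fold change of YWCH-4A over vehicle (vertical axis) against log10 of the mean CPM over the 6 libraries (horizontal axis), one point per tested gene (11473), with called genes in red where higher and in blue where lower. Rises of at least 16-fold number 21 and falls 7, and the fitted values of grey points far from 0 belong to genes that did not pass the test.

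Marker lists were used to check what the cells were. Of 15 fibroblast and mesenchymal markers 11 had enough counts to be tested, among them Vim, Pdgfra and Pdgfrb, and the untested were Fap, Dcn, Cd248 and Thy1. The summed level of all 15 ran from 35174 to 46142 CPM with vehicle and from 10170 to 10993 CPM with YWCH-4A, most of it Col1a1. Of 16 kidney epithelial markers 7 had no count in any of the 6 libraries, Epcam and Umod among them, and 3 were tested. Aqp1 and the keratin Krt8 fell by 2.14 ± 0.11 and 1.04 ± 0.09 (adjusted p = 1.85e-07 and 8.46e-06). The other tested marker was not called (log2 fold change -0.26). The sum of the 16 ran from 1786 to 2300 CPM with vehicle and from 917 to 965 CPM with YWCH-4A. Endothelial markers summed to 27.7 to 36.4 CPM with vehicle and 15.8 to 17.3 CPM with YWCH-4A. Pericyte and smooth muscle markers, which share Acta2 with myofibroblasts, summed to 312 to 406 CPM and 132 to 136 CPM, and of 6 tested 2 rose and 3 fell. The part of these markers in the results was not tested.

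The most abundant transcripts of the culture changed enough to alter the make-up of the libraries. The 44 collagen genes of the table took 7.16, 8.78 and 7.78% of all counts in vehicle libraries 1 to 3 and 1.90, 1.96 and 2.06% in the YWCH-4A libraries, a mean of 7.91 ± 0.818% against 1.97 ± 0.0784% (SD, n = 3 each). The groups did not overlap, and the exact two-sided permutation test gave p = 0.1, the smallest value that 3 against 3 libraries allow. Spp1, which encodes the secreted phosphoprotein osteopontin, went from 0.259 ± 0.0556% to 0.910 ± 0.0266% of counts, and Mmp3, the stromelysin-1 protease gene, from 0.0153 ± 0.000597% to 0.219 ± 0.0128%, with the same exact permutation p = 0.1. Mitochondrially encoded transcripts held 1.79 ± 0.322% and 1.93 ± 0.0666% (exact permutation p = 0.9). In CPM, the largest losses fell on Col1a1, Col1a2, Col3a1, the ferritin light chain gene Ftl1, Vim, Thbs1, Bgn, Ccn2 and Flna. The largest gains were those of Spp1, Mmp3, the translation elongation factor gene Eef1a1, P4hb, Csf1, Serpine2, Sod2, Ccl2, the secreted chaperone gene Clu and Mmp9. Ftl1 stood at 6577, 7669.8 and 6282 CPM with vehicle and 2933, 3095 and 3142 CPM with YWCH-4A. Clu stood at 444, 544 and 432 CPM with vehicle and 1179, 1198 and 1219.5 CPM with YWCH-4A. Neither overlapped. The log2 fold changes were -1.16 ± 0.08 for Ftl1 (adjusted p = 2.43e-06) and 1.34 ± 0.09 for Clu (adjusted p = 9.54e-07).

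Some genes were close to silent in one group and well counted in the other. Taking at most 3 counts over a whole group as near silent and at least 10 counts in every library as well counted, 11 genes were near silent with vehicle and 4 with YWCH-4A. They were chosen by these counts, so what follows is description. Among those that appeared with YWCH-4A were secreted and surface proteins of inflammation. Ccl20, a chemokine for lymphocytes and dendritic cells, had 1, 0 and 2 counts in the vehicle libraries and 53, 29 and 39 in the YWCH-4A libraries. Ccl3, a macrophage chemokine, had 0, 2 and 0 and 35, 35 and 27 counts. The interleukin-1β gene Il1b had 1, 0 and 1 and 20, 27 and 18 counts. All 3 had at most 2 counts in any vehicle library and at least 18 in each YWCH-4A library. Scaled for depth, the pooled ratios with exact 95% intervals were 29.7 (9.93 to 146) for Ccl20, 35.7 (9.63 to 299) for Ccl3 and 24.0 (6.37 to 202) for Il1b, intervals that cover counting error only.

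The T-cell surface receptor gene Cd6 had 3, 0 and 0 counts with vehicle and 128, 114 and 87 with YWCH-4A, a pooled ratio of 80.8 (27.4 to 394). Gpr132, a G protein-coupled receptor gene, had 0, 0 and 2 and 59, 45 and 48 counts, a ratio of 56.0 (15.2 to 467). The secreted phospholipase gene Pla2g5 had 0, 3 and 0 and 54, 53 and 59 counts, a ratio of 40.8 (13.7 to 199.8). Beside these, muscle and cilium genes appeared. Myl1, a skeletal muscle myosin light chain gene, went from 1, 0 and 0 to 41, 22 and 20 counts, a ratio of 61.2 (10.7 to 2445). Trim55, a sarcomere-associated ubiquitin ligase gene, went from 0, 0 and 1 to 33, 29 and 23 counts, a ratio of 62.6 (10.9 to 2503). Dnah17, an axonemal dynein gene, went from 1, 1 and 0 to 52, 49 and 34 counts, a ratio of 49.7 (13.5 to 415). The predicted gene RGD1560281 had 2, 0 and 0 counts against 43, 38 and 31. Timd2, a T-cell immunoglobulin and mucin domain gene, had 1 count in every vehicle library and 12, 12 and 16 with YWCH-4A, too few for the filter of the fit. In the YEXX-2A libraries these 11 genes had between 0 counts (Dnah17 and RGD1560281) and 13 counts (Ccl20) over the whole group, so none of them was well counted there.

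In the other direction, Col11a1, a minor fibrillar collagen gene of cartilage, had 45, 34 and 44 counts with vehicle and 0, 1 and 1 with YWCH-4A, a ratio of vehicle over YWCH-4A of 83.4 (22.6 to 697). Mfap4, a glycoprotein gene of elastic fibres, had 15, 28 and 20 counts with vehicle and 0 in every YWCH-4A library, which makes it at least 28.5-fold lower against a floor of 3 counts over the group. The tight junction gene Cgnl1 went from 16, 15 and 13 to 0, 2 and 0 counts and the predicted gene LOC688778 from 25, 15 and 23 to 1, 1 and 0. With YEXX-2A the same genes kept more counts. Col11a1 had 8, 9 and 12, Mfap4 10, 6 and 7 and Cgnl1 12, 14 and 6 counts in YEXX-2A libraries 1 to 3. How many genes meet this description rests on the thresholds: with 0 counts required in the silent group, 0 genes appeared and 1 disappeared, and with at least 30 counts per library 5 appeared and 1 disappeared.

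**Figure D2:**
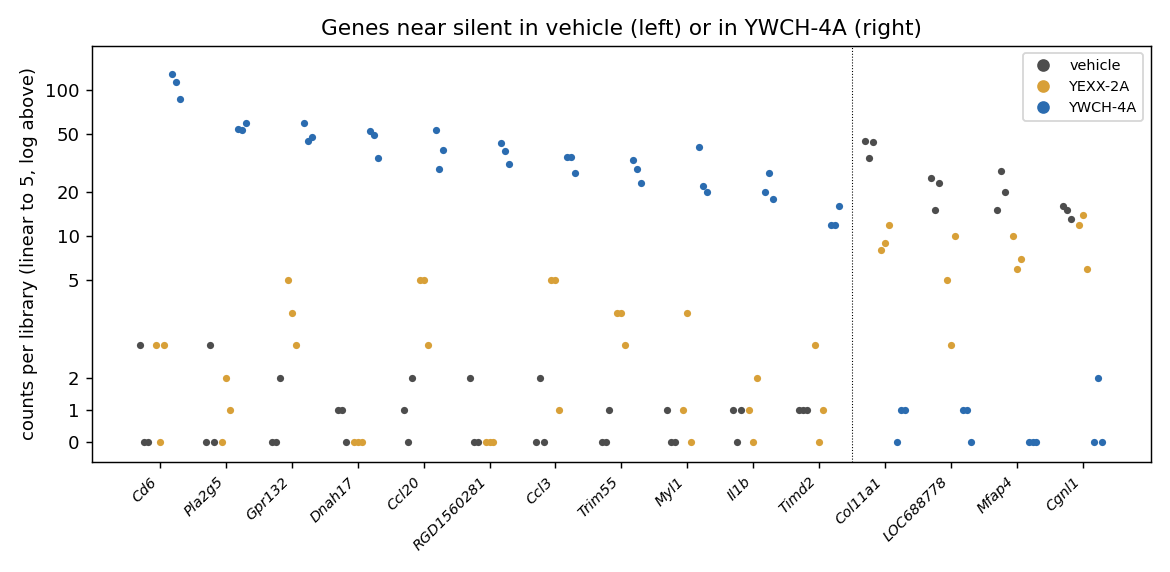
Counts per library (vertical axis, linear to 5 and logarithmic above) of the 15 genes near silent in one group and well counted in the other, with each point a library and vehicle in grey, YEXX-2A in orange and YWCH-4A in blue. The 11 genes near silent with vehicle sit at 0 to 3 counts there and at 12 to 128 counts in the YWCH-4A libraries, and at 0 to 5 counts in the YEXX-2A libraries.

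Outside the near-silent set, the largest called rises with no overlap between groups and a mean of at least 1 CPM were those of Mmp13, Mmp9, the secreted phospholipase gene Pla2g2a, LOC24906, Cxcl3, Csf3, Ch25h, Cxcl2 and Mgp, with log2 fold changes from 4.28 to 5.47. Ch25h encodes cholesterol 25-hydroxylase, an enzyme known to be induced in inflamed macrophages, and stood at 1.69, 0.554 and 1.46 CPM with vehicle and 29.3, 25.0 and 24.5 CPM with YWCH-4A. LOC24906 stood at 0.521, 0.0792 and 0.437 CPM with vehicle and 8.96, 6.90 and 8.63 CPM with YWCH-4A (log2 fold change 4.48 ± 0.32, adjusted p = 2.38e-06). Its vehicle values rest on few counts. The check for genes that passed the filter only through 1 group covered genes in the lists. Genes named only for the size of a rise or fall were not checked in this way. Mgp encodes matrix Gla protein, an inhibitor of calcification, and stood at 0.586, 0.554 and 0.292 CPM with vehicle and 9.20, 9.18 and 9.94 CPM with YWCH-4A. Every YWCH-4A library was above every vehicle library for these genes, and the log2 fold changes were 4.37 ± 0.27 for Ch25h (adjusted p = 7.14e-07) and 4.28 ± 0.25 for Mgp (adjusted p = 4.48e-07).

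The largest called falls by the same rule, beside Col11a1, were those of Tagln, Aoc3, Slc17a6, Actg2, Wfdc1, Col3a1, Atp2a3, Epyc, Serpinb7, Cmklr1, Itga11, AABR07067023.1, Ndst3 and Ahsp, from -5.37 to -2.94. Aoc3, the vascular amine oxidase gene expressed in smooth muscle and fat, stood at 5.08, 6.73 and 6.92 CPM with vehicle and 0.375, 0.156 and 0.188 CPM with YWCH-4A. Cmklr1, the receptor gene for the chemoattractant chemerin, stood at 20.8, 24.4 and 19.3 CPM with vehicle and 2.44, 2.39 and 2.81 CPM with YWCH-4A. The groups were far apart for both genes, with log2 fold changes of -4.62 ± 0.29 (adjusted p = 8.03e-07) and -3.08 ± 0.14 (adjusted p = 6.37e-08). The Aoc3 values with YWCH-4A rest on few counts. Several low genes of this set have roles outside fibroblasts. Slc17a6 is a vesicular glutamate transporter gene (3.13, 1.66 and 2.84 CPM with vehicle, 0.281, 0.0519 and 0.125 with YWCH-4A), Atp2a3 a calcium pump gene of the endoplasmic reticulum (5.27, 7.45 and 5.83 and 0.375, 0.778 and 0.375) and Wfdc1 a gene for a secreted protein with a protease inhibitor domain (9.96, 14.7 and 11.4 and 0.891, 0.726 and 0.750). Epyc, the cartilage proteoglycan epiphycan gene, stood at 5.40, 4.44 and 6.71 CPM with vehicle and 0.891, 0.415 and 0.188 CPM with YWCH-4A. Direct tests set each of these falls apart from YEXX-2A, with differences of -4.32 for Aoc3, -2.36 for Cmklr1, -4.20 for Slc17a6, -2.56 for Atp2a3, -3.39 for Wfdc1 and -3.53 for Epyc on the log2 scale and adjusted p-values up to 7.73e-05.

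**Figure D3:**
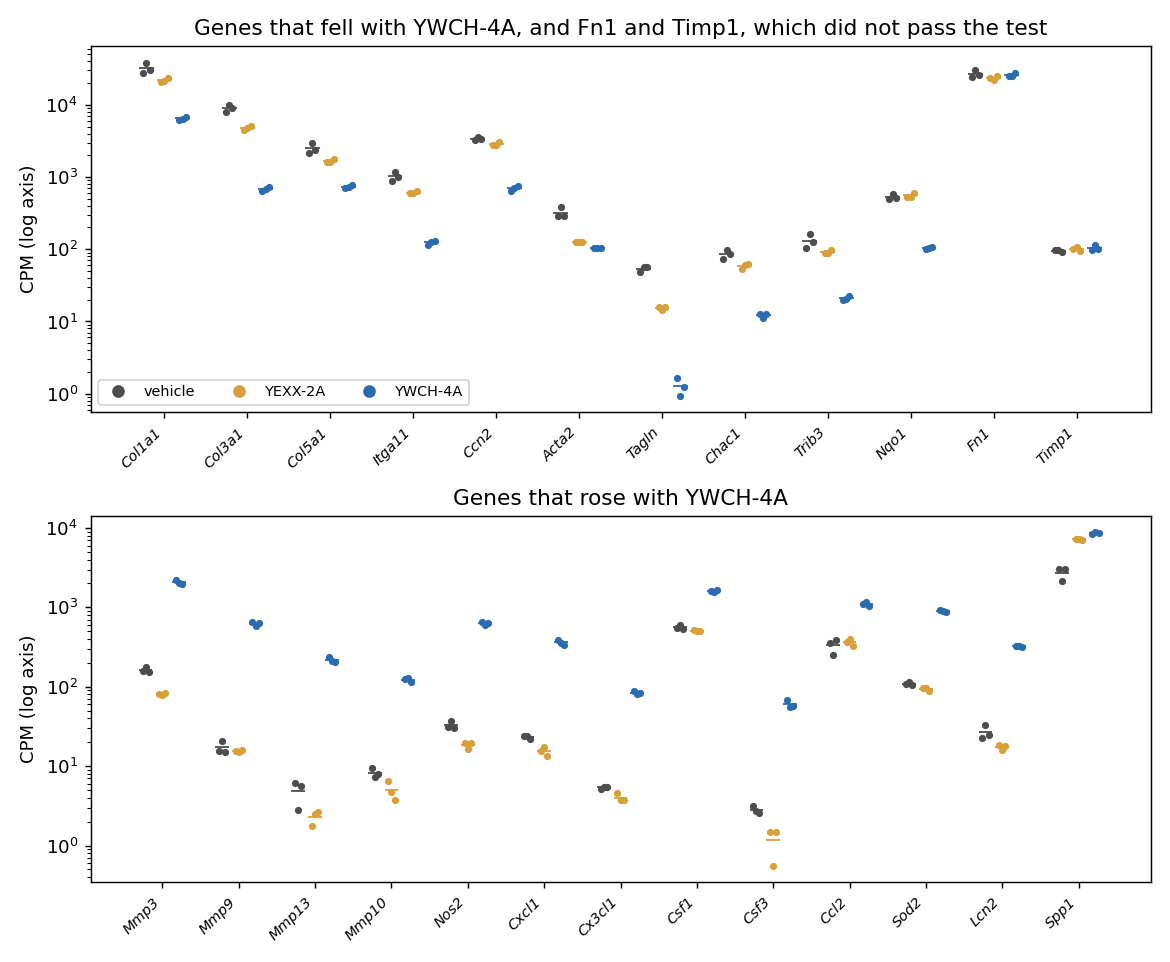
CPM per library (vertical axis, logarithmic) of 12 genes that fell or were not called (upper panel) and 13 that rose (lower panel), with each point a library and each short line a group mean. The 3 YWCH-4A points of Mmp9, Nos2 and Cxcl1 lie above all other libraries and those of Col1a1, Col3a1 and Tagln below them.

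Most collagen genes fell. Of 19 tested fibrillar, network and fibril-associated collagens, 17 fell and 2 rose, with a median log2 fold change of -1.21, against 14.9% lower, 15.7% higher and a median of 0.03 over all genes. Without Col11a1, which passed the filter only through the vehicle libraries, 16 of 18 fell (median -1.17). Col1a1, the main chain of type I collagen, stood at 27915, 38401 and 30248 CPM with vehicle and 6221, 6363 and 6807 CPM with YWCH-4A. Col3a1, the type III collagen that accompanies it in loose and healing tissue, stood at 7996, 9943 and 9001 CPM with vehicle and 632, 691 and 725 CPM with YWCH-4A. In every YWCH-4A library both genes were far below the lowest vehicle value, and vehicle library 2 was the highest of the vehicle libraries. Col1a1 fell by 2.32 ± 0.11 (adjusted p = 1.42e-07) and Col3a1 by 3.72 ± 0.10 (adjusted p = 2.28e-09) on the log2 scale. Reads of Col1a2, the second type I chain, were split over 2 gene models whose sum was 26527, 35798 and 29753 CPM with vehicle and 5650, 5852 and 6243 CPM with YWCH-4A (log2 fold change -2.38 ± 0.11, adjusted p = 8.49e-08).

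The type V collagens, which sit inside type I fibrils and set their diameter, fell too: Col5a1 by 1.76 ± 0.11, Col5a2 by 1.13 ± 0.06 and Col5a3 by 1.70 ± 0.10 on the log2 scale. Col12a1, which decorates the fibril surface, stood at 1425, 1385 and 1545 CPM with vehicle and 395, 409 and 422 CPM with YWCH-4A and fell by 1.83 ± 0.06 (adjusted p = 1.22e-08). Chains of other networks also fell. Col4a1 and Col4a2 of basement membranes fell by 0.88 and 1.05, and Col6a1 and Col6a2 of beaded microfibrils by 1.51 and 1.21. Col18a1, the precursor gene of endostatin, went the other way from 10.4, 15.3 and 10.6 CPM to 20.7, 22.4 and 24.7 CPM (log2 fold change 0.90 ± 0.18, adjusted p = 0.00302). The other member called higher, Col27a1 (0.62 ± 0.18, adjusted p = 0.0241), was not called without vehicle library 2 (adjusted p = 0.0562), YWCH-4A library 1 (adjusted p = 0.0914) or YWCH-4A library 2 (adjusted p = 0.0614).

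Direct tests put 16 of the 19 collagens lower with YWCH-4A than with YEXX-2A and 3 higher, where 15.1% of all tested genes were lower and 16.2% higher (31.3% called). The difference was -2.82 ± 0.10 for Col3a1 (adjusted p = 1.29e-08) and -1.76 ± 0.11 for Col1a1 (adjusted p = 1.03e-06). Col7a1, the anchoring fibril collagen, was the main exception. Its CPM were 6.51, 9.27 and 8.46 with vehicle, 2.14, 2.39 and 2.44 with YEXX-2A and 3.75, 3.48 and 3.94 with YWCH-4A, so that YWCH-4A was below vehicle and above YEXX-2A (difference 0.68 ± 0.18, adjusted p = 0.0143).

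Non-collagenous matrix fell more unevenly. Of 38 matrix glycoproteins and matricellular proteins, 27 fell and 2 rose (median -0.60). Without Mfap4, which passed the filter only through the vehicle libraries, 26 of 37 fell (median -0.58). Ccn2 and Ccn1, matricellular genes known as targets of TGF-β and of the mechanically regulated YAP proteins, fell together. Ccn2 stood at 3253, 3559 and 3399.8 CPM with vehicle and 649.7, 706 and 752 CPM with YWCH-4A. Ccn1 stood at 366, 523 and 406 CPM with vehicle and 84.4, 86.2 and 96.6 CPM with YWCH-4A. The groups were apart for both. The fall was 2.28 ± 0.08 for Ccn2 (adjusted p = 9.88e-09) and 2.28 ± 0.12 for Ccn1 (adjusted p = 2.88e-07) on the log2 scale, and direct tests set both below YEXX-2A (differences -2.03 and -2.02, adjusted p = 2.08e-08 and 6.84e-07). Their relatives Ccn3 and Ccn5 fell by 1.66 and 0.83. Sparc, a collagen-binding matricellular protein, fell by 1.79 ± 0.07, and Mfap5, a microfibril component, by 2.34 ± 0.11.

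Fibronectin did not follow the collagens. Fn1 stood at 24027, 30045 and 25465 CPM with vehicle and 25415, 25313 and 27724 CPM with YWCH-4A, overlapping ranges with a log2 fold change of -0.02 ± 0.09 (adjusted p = 0.889). Tenascin-C and the laminin chain gene Lamc1 also had overlapping values, with log2 fold changes of -0.02 ± 0.08 for Tnc (adjusted p = 0.861) and 0.04 ± 0.07 for Lamc1 (adjusted p = 0.708). The 2 members that rose were Mgp and Spp1. Spp1 stood at 3012, 2166 and 3015 CPM with vehicle and 8326, 8801 and 8569.5 CPM with YWCH-4A (log2 fold change 1.65 ± 0.11, adjusted p = 1.72e-06), and with YEXX-2A at 7234, 7289 and 7126 CPM, where the direct difference was 0.25 ± 0.11 (adjusted p = 0.115). Thbs1, the thrombospondin that can activate latent TGF-β, fell by 0.62 ± 0.06 (adjusted p = 3.31e-05) from 7811, 8018 and 8221 CPM to 5026, 5166 and 5415 CPM.

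Of 21 proteoglycan and hyaluronan genes, 10 fell (47.6%) and 3 rose (14.3%), against 14.9% and 15.7% of all tested genes (median -0.52). Without Ncan, which passed the filter only through the vehicle libraries, 9 of 20 fell (median -0.46). Fmod, a small leucine-rich proteoglycan that binds collagen fibrils, stood at 24.2, 30.02 and 24.5 CPM with vehicle and 4.27, 3.37 and 4.06 CPM with YWCH-4A and fell by 2.74 ± 0.14 (adjusted p = 1.42e-07). Bgn, the related and far more abundant biglycan gene, fell by 0.70 ± 0.10 (adjusted p = 0.000313), and the syndecan Sdc1 by 0.86 ± 0.09 (adjusted p = 3.27e-05). Sdc4, Cd44 and Tnfaip6 rose by 0.61, 0.41 and 1.31. Cd44 is the hyaluronan receptor and Tnfaip6 a hyaluronan-modifying protein induced by inflammatory cytokines, whereas the hyaluronan synthase gene Has2 fell by 0.88 ± 0.18 (adjusted p = 0.00356). The abundant versican gene Vcan was not called (0.26 ± 0.14, adjusted p = 0.202).

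Enzymes that fold, trim and crosslink collagen fell with it. Of 24 such genes, 17 fell and 2 rose (median -0.73). The lysyl oxidases, which crosslink collagen and elastin outside the cell, fell to different extents: Loxl3 by 1.83 ± 0.11, Loxl2 by 1.53 ± 0.07, Lox by 0.75 ± 0.15 and Loxl1 by 0.52 ± 0.10. Loxl2 stood at 438, 492 and 472 CPM with vehicle and 156, 165 and 166 CPM with YWCH-4A (adjusted p = 5.14e-08). Loxl4 was not called (-0.04 ± 0.07, adjusted p = 0.692). Prolyl 4-hydroxylases stabilise the collagen triple helix. Their catalytic subunit genes P4ha1, P4ha2 and P4ha3 fell by 1.29, 0.71 and 0.84, while P4hb, the shared β subunit that is also a general disulfide isomerase, rose from 3539.7, 4178 and 3709 CPM to 4947, 4946 and 5094 CPM (log2 fold change 0.39 ± 0.07, adjusted p = 0.00223). Serpinh1, the collagen chaperone HSP47, fell by 0.90 ± 0.07 (adjusted p = 5.37e-06). Tgm2, tissue transglutaminase, was the other member that rose. It stood at 20.4, 25.3 and 19.97 CPM with vehicle and 84.7, 81.8 and 83.9 CPM with YWCH-4A, with a log2 fold change of 1.93 ± 0.10 (adjusted p = 1.36e-07), and was also above YEXX-2A (difference 2.55 ± 0.10, adjusted p = 2.17e-08).

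Contractile genes mostly fell. Of 28 contractile and cytoskeletal genes, 20 fell (71.4%) and 4 rose (14.3%), against 14.9% and 15.7% of all tested genes (median -0.51). Tagln, the smooth muscle actin-binding protein transgelin, stood at 49.1, 55.9 and 56.0 CPM with vehicle and 1.64, 0.934 and 1.25 CPM with YWCH-4A. Acta2, α-smooth muscle actin and the usual marker of myofibroblasts, stood at 291, 382 and 292 CPM with vehicle and 103, 105 and 104 CPM with YWCH-4A. Tagln nearly disappeared in every YWCH-4A library, whereas Acta2 settled at a level that the 3 YWCH-4A libraries shared closely. The falls were 5.37 ± 0.16 (adjusted p = 4.67e-09) and 1.63 ± 0.10 (adjusted p = 6.42e-07) on the log2 scale. Set directly against YEXX-2A, Tagln was lower, with a log2 difference of -3.58 ± 0.17 (adjusted p = 8.59e-08), but the difference for Acta2 was -0.27 ± 0.10 and not called (adjusted p = 0.0544). This value for Acta2 is close to the threshold, and the test shares its spread with the vehicle libraries. With the 2 compounds fitted alone 5903 genes were called in place of 3593, so a missing call here does not show that the compounds were alike. Actg2, the enteric smooth muscle actin, stood at 2.47, 2.69 and 2.48 CPM with vehicle and 0.0938, 0.259 and 0.125 CPM with YWCH-4A and fell by 3.94 ± 0.35 (adjusted p = 1.02e-05).

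Broadly expressed cytoskeletal genes fell less: Vim by 1.10, Csrp2 by 1.09, the tropomyosin Tpm1 by 0.90, filamin A (Flna) by 0.82 and β-actin (Actb) by 0.54. Not the whole list followed. The smooth muscle myosin heavy chain gene Myh11 stood at 5.27, 4.52 and 5.03 CPM with vehicle and 18.1, 17.8 and 14.4 CPM with YWCH-4A and rose by 1.76 ± 0.14 (adjusted p = 6.09e-06), the tropomyosin Tpm2 rose by 0.49 ± 0.05 (adjusted p = 4.11e-05) and the non-muscle myosin Myh10 by 0.27 ± 0.06 (adjusted p = 0.00809). Tagln2 and Tpm4 were not called (adjusted p = 0.632 and 0.574).

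Collagen receptors changed in opposite directions. Itga11, the integrin chain of fibroblasts that binds type I collagen, stood at 886, 1191 and 1000.2 CPM with vehicle and 116, 126 and 131 CPM with YWCH-4A. Itga1, whose product binds collagen with the same β1 partner, stood at 42.1, 30.02 and 46.6 CPM with vehicle and 179, 172 and 159.9 CPM with YWCH-4A. Itga2, a further collagen-binding chain, stood at 13.8, 9.43 and 14.4 CPM with vehicle and 74.0, 71.2 and 65.7 CPM with YWCH-4A. Itga11 was thus the most abundant of the 3 in every vehicle library and was below Itga1 in every YWCH-4A library on the CPM scale, which is not corrected for length. The log2 fold changes were -3.05 ± 0.11 for Itga11 (adjusted p = 1.15e-08), 2.10 ± 0.15 for Itga1 (adjusted p = 1.73e-06) and 2.48 ± 0.15 for Itga2 (adjusted p = 6.12e-07), and each also differed from YEXX-2A (-2.29, 1.41 and 1.49, adjusted p up to 3.21e-05). Itga7, a laminin receptor chain of muscle, stood at 5.08, 5.15 and 3.64 CPM with vehicle and 57.2, 55.4 and 59.4 CPM with YWCH-4A and rose by 3.63 ± 0.13 (adjusted p = 1.15e-08). The neural adhesion molecule L1cam rose from 0.0651, 0.475 and 0.292 CPM to 3.28, 3.06 and 3.75 CPM. The shared β1 chain gene Itgb1 and the fibronectin receptor chain gene Itga5 were not called (adjusted p = 0.426 and 0.256). Over the list of 26 integrins and adhesion molecules, 8 rose and 9 fell, among the latter the cadherin Cdh3 by 1.17, the laminin receptor chain Itga6 by 0.85 and Ncam1 by 0.51. Itgb7 and L1cam passed the filter only through the YWCH-4A libraries, so their calls carry no weight here. Without them 6 of 24 rose and 9 fell.

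Matrix metalloproteinases are secreted zinc proteases that cut collagen and other matrix, and their gene promoters are known for sites of AP-1, the dimer of Fos and Jun proteins, close to the start of transcription. The promoter of Mmp13 is shown because this gene had the largest called rise of the well-counted genes. These are the 250 bases before its start in RefSeq (build GRCr8, plus strand), with the AP-1 match in capitals.
Mmp13: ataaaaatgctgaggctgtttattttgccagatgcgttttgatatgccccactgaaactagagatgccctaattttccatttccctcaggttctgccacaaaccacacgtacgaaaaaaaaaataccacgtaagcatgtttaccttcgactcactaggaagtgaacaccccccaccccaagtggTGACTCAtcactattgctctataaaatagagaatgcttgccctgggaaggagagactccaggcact
The motif searched was TGANTCA on both strands in the window from 250 bases before to 50 after the start. It occurred in 2012 of 27457 RefSeq promoters of that window (7.33%), in 4 of the 7 promoters of the list's genes called higher, in 1 of the 10 called lower (Adam19) and in 0 of the 5 not called. Among the 4 is Mmp12, which passed the filter only through the YWCH-4A libraries, so its call carries no weight here. The other 3 matches, with 10 bases on either side and the match in capitals, lay 61 bases before the start in Mmp10, 71 in Mmp3 and 87 in Mmp12, against 66 in Mmp13. A match is a description of these letters and no evidence of binding.
Mmp10: agcacccacaTGAGTCAtgcttagtga
Mmp3: gaagcaattaTGAGTCAgtttgcgggt
Mmp12: acatcaacagTGAGTCAtattgaggat

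Of 29 metalloproteinases and inhibitors, 8 rose and 11 fell, with a median of -0.04 that changed sign without vehicle library 2 (0.01) and on the FPKM scale. Without Mmp12, which passed the filter only through the YWCH-4A libraries, 7 of 28 rose and 11 fell. The collagenase gene Mmp13 stood at 6.12, 2.77 and 5.69 CPM with vehicle and 241, 211 and 206 CPM with YWCH-4A. Mmp9, a gelatinase, stood at 15.7, 20.9 and 15.1 CPM with vehicle and 651, 578 and 632 CPM with YWCH-4A. Mmp3 stood at 159.5, 176 and 153 CPM with vehicle and 2195, 2004 and 1987 CPM with YWCH-4A. For each of the 3 proteases, every YWCH-4A library was more than 10-fold above every vehicle library. The log2 fold changes were 5.47 ± 0.20 for Mmp13 (adjusted p = 1.89e-08), 5.17 ± 0.12 for Mmp9 (adjusted p = 9.94e-10) and 3.66 ± 0.08 for Mmp3 (adjusted p = 7.32e-10). Mmp10, a stromelysin, rose by 3.89 ± 0.16, the macrophage elastase gene Mmp12 by 3.03 ± 0.44, the aggrecanase Adamts4 by 2.13 ± 0.08, and the sheddase Adam17 by 1.20 ± 0.13. YEXX-2A libraries held Mmp13 at 1.77, 2.49 and 2.66 CPM and Mmp3 at 81.1, 78.9 and 82.9 CPM, and the differences between the compounds were 6.59 ± 0.22 (adjusted p = 1.12e-08) and 4.67 ± 0.08 (adjusted p = 1.48e-10).

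The gelatinase Mmp2 and the membrane collagenase Mmp14, both abundant in these cells, were not called (log2 fold changes -0.04 ± 0.10 and 0.02 ± 0.08, adjusted p = 0.811 and 0.854). Among the inhibitors, Timp1 stood at 97.2, 97.3 and 92.8 CPM with vehicle and 96.8, 114 and 100 CPM with YWCH-4A and was not called (0.11 ± 0.08, adjusted p = 0.298), while Timp3, which binds to the matrix, fell by 1.51 ± 0.07 (adjusted p = 1.42e-07). The largest falls of the list were those of Adam19, Adam8 and Adamts9, by 2.33, 1.85 and 1.72. In the plasminogen system, Plat, tissue plasminogen activator, rose by 1.06 ± 0.07 (adjusted p = 1.57e-06) and the protease inhibitor Serpine2 by 0.95 ± 0.05 (adjusted p = 4.48e-07). Of 12 genes of this system 4 rose and 3 fell, and without vehicle library 2 7 and 3. F3, tissue factor, rose by 1.47 ± 0.11, and Serpinf1, the anti-angiogenic factor PEDF, fell by 1.15 ± 0.09.

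Chemokine genes had the highest medians of all lists. Cells of the immune system, the usual source and target of many of these genes, were close to absent by their markers. Of 15 macrophage and leukocyte markers 7 had no count in any of the 6 libraries, Cd3e and Ms4a1 among them, and only Cd68, which is also carried in fibroblast lysosomes, was tested. The sum of all 15 was 47.5 to 63.0 CPM with vehicle and 66.2 to 73.8 CPM with YWCH-4A, of which Cd68 made 47.1, 62.8 and 51.4 CPM in vehicle libraries 1 to 3 and 73.5, 67.9 and 66.1 CPM in YWCH-4A libraries 1 to 3. The promoter of Cxcl1 is shown because this neutrophil attractant rose and holds a kB match, the sequence that NF-κB is known to bind, close to its start. These are the 250 bases before its start in RefSeq (GRCr8, minus strand), with the kB match in capitals, which is read as 2 overlapping matches.
Cxcl1: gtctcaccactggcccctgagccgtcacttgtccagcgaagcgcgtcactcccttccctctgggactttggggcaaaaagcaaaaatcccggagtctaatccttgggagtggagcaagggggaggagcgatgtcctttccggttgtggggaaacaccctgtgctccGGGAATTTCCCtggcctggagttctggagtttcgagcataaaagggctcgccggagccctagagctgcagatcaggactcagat
The kB consensus was searched on both strands and occurred in 2087 of 27457 RefSeq promoters (7.6%). It was found in 3 of 6 promoters of CXC chemokines called higher and 1 of 2 called lower. Of the CC chemokines it was in 2 of 2, Ccl20 and Ccl7, and Ccl20 passed the filter only through the YWCH-4A libraries. Of the interleukins and colony-stimulating factors it was in 1 of 8 called higher (Il6) and 0 of 3 not called. It was in 9 of 17 of the NF-κB pathway genes called higher and 3 of 7 not called. Of the antigen presentation genes it was in 7 of 15 called higher and 0 of 1 not called. Called members that passed the filter only through the YWCH-4A libraries are included in these shares. Windows of 10 bases on either side of a match are shown for a member of each role. They lay 74 bases before the start in Cxcl2, 89 in Ccl20, 68 in Il6, 93 in Vcam1, 31 in Nfkbia and 55 in Tap1. Cxcl10, a chemokine that fell, had matches 187 and 128 bases before its start.
Cxcl2: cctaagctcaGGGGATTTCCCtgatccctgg
Ccl20: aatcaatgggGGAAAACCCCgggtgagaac
Il6: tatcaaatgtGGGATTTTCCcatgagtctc
Vcam1: tccccttgaaGGGATTTCCCtccgcctctc
Nfkbia: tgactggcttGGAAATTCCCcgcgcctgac
Tap1: gcgggttctcGGGACTTTCCgcgcacgccc
Cxcl10, far match: gcaggaaagaGGGAAATTCCaagctcatgg
Cxcl10, near match: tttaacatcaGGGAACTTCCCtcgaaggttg

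Of 9 tested CXC and CX3C chemokines, 7 rose and 2 fell (median 2.23). The neutrophil attractants led. Cxcl1 stood at 24.3, 23.8 and 22.2 CPM with vehicle and 393, 357 and 340.1 CPM with YWCH-4A. Cxcl2 stood at 0.781, 1.11 and 1.53 CPM with vehicle and 26.1, 21.6 and 20.7 CPM with YWCH-4A. Cxcl3 stood at 0.651, 0.713 and 0.729 CPM with vehicle and 17.0, 14.7 and 14.4 CPM with YWCH-4A. Each of these 3 was more than 10-fold higher in every YWCH-4A library than in every vehicle library. Their log2 fold changes were 3.95 ± 0.10 for Cxcl1 (adjusted p = 1.38e-09), 4.33 ± 0.21 for Cxcl2 (adjusted p = 1.35e-07) and 4.45 ± 0.19 for Cxcl3 (adjusted p = 5.14e-08). Cx3cl1, the membrane-bound chemokine fractalkine, went from 5.14, 5.54 and 5.54 CPM to 88.3, 80.00 and 83.0 CPM and rose by 3.95 ± 0.11 (adjusted p = 2.28e-09). The members that fell were Cxcl10 and Cxcl13. Cxcl13, a B-cell attractant, fell by 1.42 ± 0.23 (adjusted p = 0.000912). Cxcl10, an interferon-inducible attractant of T cells, stood at 115, 109.6 and 96.9 CPM with vehicle and 58.5, 50.4 and 52.2 CPM with YWCH-4A. Cxcl10 fell by 1.00 ± 0.08 (adjusted p = 6.33e-06), whereas Cxcl11, which shares its receptor, rose from 3.71, 1.90 and 3.72 CPM to 15.4, 14.1 and 14.9 CPM (2.23 ± 0.19, adjusted p = 9.62e-06).

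Of 5 tested CC chemokines, the near-silent genes Ccl20 and Ccl3 passed the filter only through the YWCH-4A libraries, and their calls carry no weight here. The other 3, Ccl2, Ccl5 and Ccl7, all rose (median 1.81). Ccl2, the monocyte attractant MCP-1, stood at 357, 249 and 394 CPM with vehicle and 1101, 1167 and 1029 CPM with YWCH-4A. Ccl5, an attractant of T cells and monocytes, stood at 22.7, 20.3 and 19.1 CPM with vehicle and 99.8, 108 and 105 CPM with YWCH-4A. Vehicle library 2 was the lowest for Ccl2, and the groups did not overlap for either gene. Ccl2 rose by 1.72 ± 0.15 (adjusted p = 9.5e-06), Ccl5 by 2.33 ± 0.12 (adjusted p = 1.62e-07) and Ccl7 by 1.81 ± 0.08 (adjusted p = 5.14e-08).

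Among 16 interleukins, TNF ligands and colony-stimulating factors, 11 rose and 0 fell (median 1.50). Il1a, Il1b and Tnfsf10 passed the filter only through the YWCH-4A libraries, so their calls carry no weight here. Without them 8 of 13 rose (median 1.07). All 3 colony-stimulating factors rose. Csf1, the macrophage growth factor, went from 555, 592 and 528 CPM to 1629.7, 1581 and 1639 CPM. Csf3, the granulocyte factor, went from 3.19, 2.69 and 2.55 CPM to 67.5, 55.8 and 56.9 CPM. Csf2, which acts on both lineages, went from 1.76, 1.19 and 1.17 CPM to 12.3, 15.6 and 14.4 CPM. None of the 3 overlapped, and the log2 fold changes were 1.53 ± 0.06 for Csf1 (adjusted p = 3.31e-08), 4.41 ± 0.21 for Csf3 (adjusted p = 9.62e-08) and 3.34 ± 0.24 for Csf2 (adjusted p = 1.96e-06). In the interleukin-1 family, the agonist Il1a stood at 0.326, 0.158 and 0.583 CPM with vehicle and 4.36, 4.98 and 4.31 CPM with YWCH-4A and rose by 3.64 ± 0.31 (adjusted p = 8.18e-06), and Il1rn, the natural antagonist, rose by 1.48 ± 0.06 (adjusted p = 4.65e-08) from 41.8, 40.3 and 42.4 CPM to 112, 118 and 116 CPM. Il23a rose by 2.23 ± 0.20, Lif by 1.06 ± 0.09 and Tnfsf15 by 2.64 ± 0.31. Il6 stayed low. It stood at 3.58, 3.80 and 4.15 CPM with vehicle and 6.57, 7.83 and 6.63 CPM with YWCH-4A and rose by 0.87 ± 0.15 (adjusted p = 0.00137). Il33 and Il11 were not called (-0.21 ± 0.18 and -0.24 ± 0.27, adjusted p = 0.411 and 0.536), and without vehicle library 2 Il33 was called lower (-0.42, adjusted p = 0.00511).

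Of 26 cytokine and innate immune receptors, 11 rose (42.3%) and 4 fell (15.4%), against 15.7% and 14.9% of all tested genes (median 0.34). The share that fell was thus near that of all genes. Tlr2, a receptor for bacterial lipoproteins, stood at 0.326, 0.317 and 0.656 CPM with vehicle and 8.63, 6.90 and 8.25 CPM with YWCH-4A. The death receptor Fas stood at 9.31, 8.32 and 9.62 CPM with vehicle and 41.4, 42.9 and 37.6 CPM with YWCH-4A. Both were higher in every YWCH-4A library than in any vehicle library. The log2 fold changes were 4.18 ± 0.28 for Tlr2 and 2.16 ± 0.11 for Fas (adjusted p = 1.35e-07). Tlr2 passed the filter only through the YWCH-4A libraries, so its call carries no weight here. Without Tlr2, 10 of 25 rose and 4 fell (median 0.32). Il6st, the signal-transducing chain gp130 shared by the interleukin-6 family, rose by 1.43 ± 0.09, Il6r by 0.94 ± 0.15 and Osmr by 0.90 ± 0.13. The interleukin-33 receptor gene Il1rl1 fell by 1.56 ± 0.17 (adjusted p = 4.62e-05), Tlr5 by 1.10 and the CXCL12 scavenger Ackr3 by 0.65. The interleukin-1 receptor gene Il1r1, the co-receptor Cd14 and Il17ra were not called (adjusted p = 0.682, 0.897 and 0.573).

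In the NF-κB list 22 of 29 genes rose and 0 fell (median 1.01). Direct tests put 23 of the 29 above YEXX-2A and 0 below, against 16.2% and 15.1% of all tested genes. Feedback inhibitors were among the clearest. Nfkbia, which encodes IκBα, stood at 42.5, 42.1 and 48.5 CPM with vehicle and 193, 192 and 189 CPM with YWCH-4A. Tnfaip3, the ubiquitin-editing enzyme A20, stood at 16.7, 16.6 and 15.2 CPM with vehicle and 76.4, 79.1 and 78.9 CPM with YWCH-4A. Zc3h12a, the RNase Regnase-1 that degrades cytokine mRNA, stood at 73.7, 83.5 and 65.2 CPM with vehicle and 317, 295 and 296 CPM with YWCH-4A. All 3 had higher values in every YWCH-4A library, with log2 fold changes of 2.11 ± 0.07, 2.27 ± 0.09 and 2.03 ± 0.09 and adjusted p-values up to 6.86e-08. Sod2, mitochondrial superoxide dismutase and a known NF-κB target, stood at 109, 115 and 106 CPM with vehicle and 926, 902 and 866 CPM with YWCH-4A and rose by 3.03 ± 0.06 (adjusted p = 7.32e-10). Of the NF-κB subunits, Nfkb1, Nfkb2 and Relb rose by 1.01, 0.77 and 1.26, while Rela and Rel were not called (0.19 ± 0.09 and 0.28 ± 0.30, adjusted p = 0.122 and 0.514). Without vehicle library 2 Rela was called higher (0.30, adjusted p = 0.0001). The leukocyte adhesion receptors Vcam1 and Icam1 rose by 2.86 ± 0.24 and 1.06 ± 0.10. Traf2 and Traf3 were not called (adjusted p = 0.0945 and 0.0718).

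**Figure D4:**
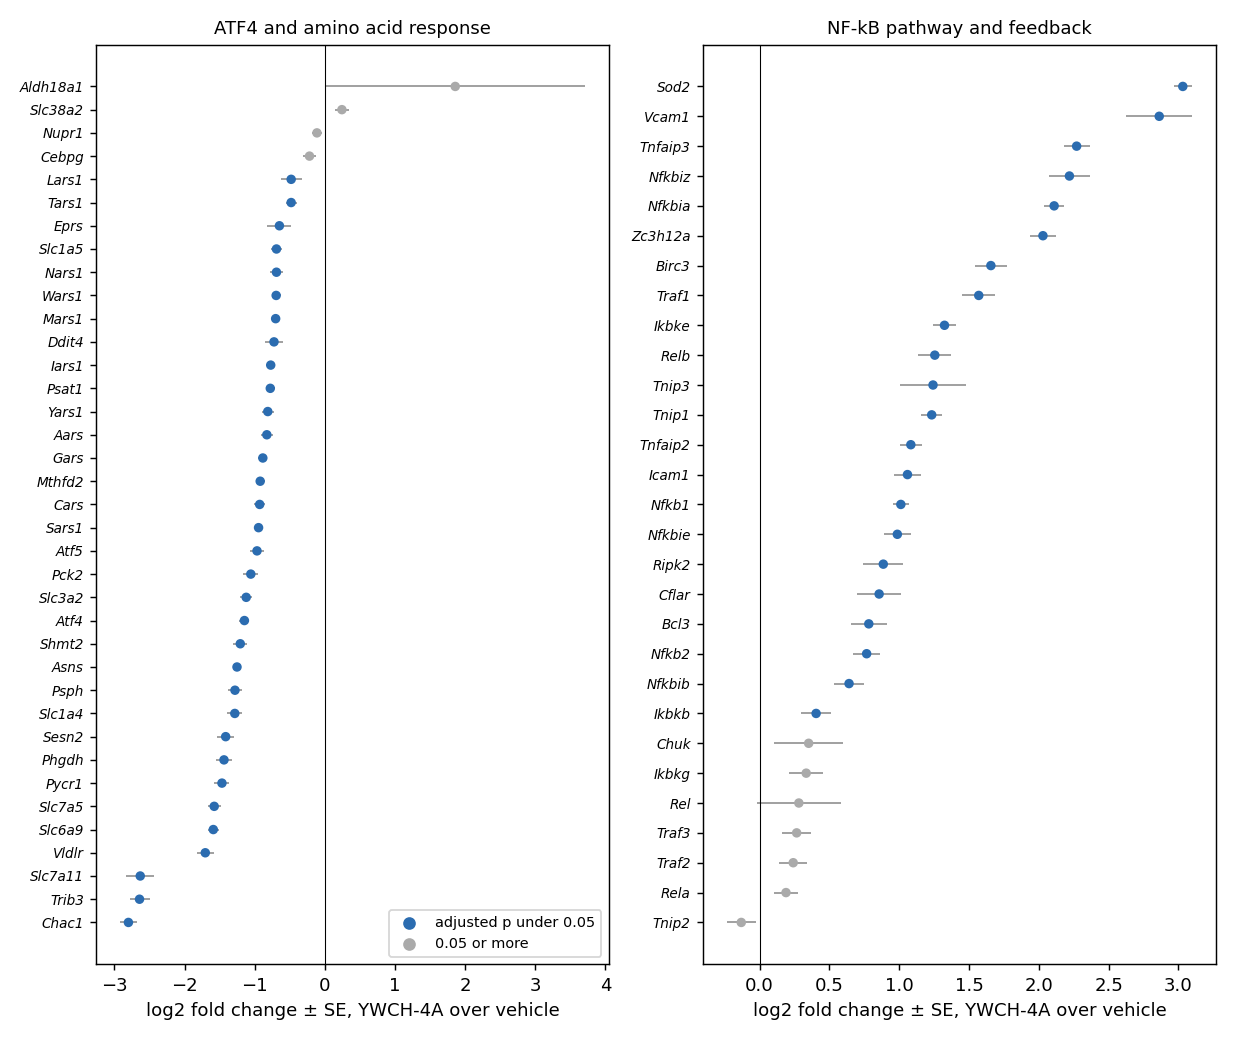
Log2 fold changes of YWCH-4A over vehicle with standard errors (horizontal axis) for the NF-κB list and the ATF4 list, one point per tested gene, blue where called and grey where not. In the NF-κB list 22 of 29 genes rose and 0 fell, and in the ATF4 list 33 of 37 fell and 0 rose.

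Effector proteins of inflammation were also higher. Of 8 acute phase and host defence genes 7 rose (median 1.74). Lcn2, the siderophore-binding protein lipocalin 2 that is also used as a marker of kidney injury, stood at 22.6, 33.0 and 24.9 CPM with vehicle and 329, 328 and 313 CPM with YWCH-4A. Chi3l1, a chitinase-like protein, stood at 1.56, 2.38 and 2.48 CPM with vehicle and 33.8, 29.1 and 33.5 CPM with YWCH-4A. Neither gene overlapped between groups. Lcn2 rose by 3.60 ± 0.12 (adjusted p = 1.15e-08) and Chi3l1 by 3.92 ± 0.16 (adjusted p = 4e-08). Slpi, a leukocyte protease inhibitor, rose by 2.54 ± 0.24, the copper carrier Cp by 1.83 ± 0.22 and Ptx3 by 1.28 ± 0.18. Lbp was not called (0.03 ± 0.19, adjusted p = 0.907). In the complement list 5 of 9 rose (55.6%) and 1 fell (11.1%), against 15.7% and 14.9% of all tested genes. C3, the central component, went from 13.6, 19.3 and 17.4 CPM to 89.0, 84.2 and 83.4 CPM (2.35 ± 0.13, adjusted p = 2.95e-07), the initiating proteases C1s and C1r rose by 1.15 ± 0.06 and 0.59 ± 0.05, and Masp1 of the lectin pathway fell by 0.50 ± 0.05.

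The nitric oxide genes showed no common direction. Nos2, inducible nitric oxide synthase, which makes nitric oxide from arginine, stood at 31.3, 37.3 and 30.2 CPM with vehicle and 651, 596 and 638 CPM with YWCH-4A. Ass1, which rebuilds arginine from citrulline, stood at 13.8, 19.1 and 17.2 CPM with vehicle and 114, 102 and 105 CPM with YWCH-4A. Gch1, the rate-limiting enzyme of the tetrahydrobiopterin cofactor, stood at 0.586, 0.634 and 0.510 CPM with vehicle and 2.16, 2.80 and 2.38 CPM with YWCH-4A. Nos2 rose by 4.26 ± 0.10 (adjusted p = 1.08e-09) and Ass1 by 2.68 ± 0.11 (adjusted p = 4.23e-08). The log2 fold change of Gch1 was 2.07 ± 0.24. Gch1 passed the filter only through the YWCH-4A libraries, so its call carries no weight here. The arginine importer Slc7a1, the arginase Arg1, and Ddah1 and Ddah2, which degrade natural inhibitors of the synthase, fell by 0.96, 0.64, 1.22 and 0.59. In all 4 of 10 rose and 5 fell, and without Gch1 3 of 9 rose and 5 fell. Nos2 stood at 19.9, 16.6 and 19.7 CPM in the YEXX-2A libraries, and the difference between the compounds was 5.07 ± 0.11 (adjusted p = 3.57e-10).

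Inducible enzymes of prostaglandin E2 synthesis rose. Pla2g2a, a secreted phospholipase that releases arachidonic acid, stood at 0.977, 0.792 and 1.60 CPM with vehicle and 32.0, 31.1 and 34.3 CPM with YWCH-4A. Ptgs2, the inducible cyclooxygenase COX-2, stood at 31.7, 20.4 and 30.7 CPM with vehicle and 119, 123 and 99.0 CPM with YWCH-4A. Ptges, the inducible prostaglandin E synthase, stood at 1.11, 2.06 and 1.24 CPM with vehicle and 22.1, 18.8 and 22.1 CPM with YWCH-4A. The groups did not overlap for any of the 3, and the log2 fold changes were 4.84 ± 0.21 for Pla2g2a (adjusted p = 5.14e-08), 2.04 ± 0.16 for Ptgs2 (adjusted p = 5.05e-06) and 3.85 ± 0.22 for Ptges (adjusted p = 3.55e-07). The constitutive cyclooxygenase Ptgs1 fell by 0.41 ± 0.09 (adjusted p = 0.00724; not called on the log2(FPKM + 1) scale, limma adjusted p = 0.0545), and the constitutive synthases Ptges2 and Ptges3 were not called (adjusted p = 0.179 and 0.971). The prostacyclin receptor Ptgir and the prostaglandin importer Slco2a1 rose by 2.03 ± 0.17 and 1.45 ± 0.13, and the exporter Abcc4 fell by 0.63 ± 0.07. Of 14 genes in the list 8 rose (57.1%) and 2 fell (14.3%), against 15.7% and 14.9% of all tested genes (median 1.06). Without Pla2g5 and Ptger4, which passed the filter only through the YWCH-4A libraries, 6 of 12 rose (median 0.57).

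Antigen presentation genes rose by moderate amounts, 17 of 18 with 0 lower (median 0.78). Cd74, the invariant chain of MHC class II, stood at 89.3, 118 and 90.3 CPM with vehicle and 386, 402 and 393 CPM with YWCH-4A. B2m, the light chain of class I, stood at 617, 484 and 629.7 CPM with vehicle and 1093, 1228 and 1107 CPM with YWCH-4A. Vehicle library 2 was the highest vehicle value for Cd74 and the lowest for B2m, and neither gene overlapped between groups. Cd74 rose by 1.99 ± 0.10 (adjusted p = 1.42e-07) and B2m by 0.99 ± 0.11 (adjusted p = 4.59e-05). The immunoproteasome subunit Psmb9 rose by 1.01 ± 0.08, the peptide transporter Tap1 by 0.71 ± 0.09 and Nlrc5, the activator of class I genes, by 0.96 ± 0.10. The class I and II genes of the RT1 complex rose as well, but reads can be split between near-identical copies there. Cd80 was not called (adjusted p = 0.81).

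Type I interferon-stimulated genes showed no common direction against vehicle. Of 30, 7 rose (23.3%) and 4 fell (13.3%), against 15.7% and 14.9% of all tested genes (median 0.06), and without vehicle library 2 11 rose and 6 fell. Direct tests put 20 of them below YEXX-2A and 3 above, against 15.1% and 16.2% of all tested genes. Isg15, a ubiquitin-like antiviral protein, stood at 80.9, 72.5 and 72.9 CPM with vehicle and 43.4, 38.4 and 42.0 CPM with YWCH-4A and at 124, 113 and 111 CPM in the YEXX-2A libraries. It fell by 0.87 ± 0.08 against vehicle (adjusted p = 1.31e-05). Rsad2 and Oasl, antiviral effectors, fell by 0.66 ± 0.11 and 1.26 ± 0.10, while Irf1, a transcription factor also induced by NF-κB, rose by 0.95 ± 0.07 and Gbp5 by 2.05 ± 0.24. Irf7, Ifi27 and Usp18 were not called (adjusted p = 0.124, 0.138 and 0.249).

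The TGF-β pathway itself showed no common direction. Of 32 ligands, receptors and SMADs, 8 rose (25%) and 7 fell (21.9%), against 15.7% and 14.9% of all tested genes. The median was 0.06 (-0.02 without vehicle library 2). Among ligands, Tgfb3 stood at 249, 289.5 and 275 CPM with vehicle and 116, 113 and 115 CPM with YWCH-4A and fell by 1.24 ± 0.07 (adjusted p = 2.54e-07), and Tgfb2 fell by 0.83 ± 0.11 (adjusted p = 0.000194). Tgfb1 stood at 455, 599 and 454 CPM with vehicle and 622, 610.2 and 633 CPM with YWCH-4A, with vehicle library 2 close to the YWCH-4A values (0.31 ± 0.10, adjusted p = 0.0341). This call was lost with the replicate block (adjusted p = 0.0583), with DESeq2 size factors, with the 2 groups fitted alone and without any single library other than vehicle library 2 (adjusted p from 0.0524 to 0.112), and without vehicle library 2 the change was 0.45 (adjusted p = 8.31e-08). Of the receptors, Tgfbr2 rose by 0.35 ± 0.07, the co-receptor Tgfbr3 by 0.82 ± 0.11 and the activin receptor Acvr1b by 1.16 ± 0.10. Smad3, which carries the signal, fell by 0.43 ± 0.07 (adjusted p = 0.000895), the inhibitor Smad6 fell by 0.78 ± 0.12 and the inhibitor Smad7 stood at 0.31 ± 0.09 (adjusted p = 0.0188, but 0.0537 with the replicate block, 0.0511 with the 2 groups fitted alone, and 0.0561 and 0.0875 without YWCH-4A library 2 or 3). The abundant feedback gene Pmepa1, Smad4 and Smad2 were not called (adjusted p = 0.659, 0.755 and 0.582).

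BMPs are relatives of TGF-β. Bmp2 stood at 45.4, 27.6 and 41.7 CPM with vehicle and 194, 182 and 174 CPM with YWCH-4A. Bmp4, a close paralogue, stood at 43.8, 34.2 and 41.1 CPM with vehicle and 17.9, 17.2 and 15.9 CPM with YWCH-4A. The 2 genes were at like levels with vehicle and about 10-fold apart with YWCH-4A on the CPM scale, which is not corrected for length. The log2 fold changes were 2.26 ± 0.16 for Bmp2 (adjusted p = 1.92e-06) and -1.22 ± 0.10 for Bmp4 (adjusted p = 8.86e-06). Grem1, a secreted BMP antagonist, rose by 1.02 ± 0.17 (adjusted p = 0.00116), and Gdf10 fell by 2.40 ± 0.17 (adjusted p = 2.53e-06). Of 18 BMP genes, 7 rose (38.9%) and 3 fell (16.7%), against 15.7% and 14.9% of all tested genes. The target gene Id3 rose by 0.35 ± 0.08, and Id1 was not called (adjusted p = 0.772).

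Wnt genes fell more often than they rose, 17 (51.5%) against 6 (18.2%) of 33 (median -0.30), where 14.9% and 15.7% of all tested genes did. Without Wif1, which passed the filter only through the vehicle libraries, 16 of 32 fell. Wnt4, a ligand known from kidney development and fibrosis, stood at 33.1, 50.5 and 37.6 CPM with vehicle and 8.73, 8.25 and 9.63 CPM with YWCH-4A and fell by 2.19 ± 0.17 (adjusted p = 3.99e-06). The secreted modulator Sfrp4, the receptor Fzd4 and the inhibitor Apcdd1 fell by 1.53 ± 0.09, 1.79 ± 0.13 and 1.92 ± 0.12, and Axin2, a feedback target of β-catenin, by 0.89 ± 0.09. Rspo3, a secreted enhancer of Wnt signalling, went the other way from 0.586, 0.634 and 0.729 CPM to 4.22, 4.77 and 3.94 CPM (2.72 ± 0.22, adjusted p = 5.05e-06), and Wnt5a, Fzd5 and the β-catenin gene Ctnnb1 rose by 0.70, 0.72 and 0.38. The co-receptors Lrp5 and Lrp6 were not called (adjusted p = 0.765 and 0.405).

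Of 37 growth factors and receptor tyrosine kinases, 12 rose and 13 fell. Angptl4 and Pdgfb passed the filter only through the YWCH-4A libraries, so their calls carry no weight here. Without them 10 of 35 rose and 13 fell. The EGF receptor ligand genes Hbegf and Tgfa fell by 1.53 ± 0.11 (adjusted p = 2.8e-06) and 0.53 ± 0.08, and the neuregulin gene Nrg1 by 0.95 ± 0.09. In the PDGF family, Pdgfa and Pdgfb rose by 0.97 ± 0.13 and 2.71 ± 0.32, Pdgfc fell by 1.07 ± 0.12, the receptor Pdgfra rose by 0.69 ± 0.08 and Pdgfrb was not called (0.07 ± 0.09, adjusted p = 0.574). Angpt1, the angiopoietin that stabilises vessels, stood at 6.84, 3.56 and 7.51 CPM with vehicle and 26.2, 27.7 and 24.6 CPM with YWCH-4A and rose by 2.12 ± 0.23 (adjusted p = 5.34e-05). Fgf1 and Fgf7 rose by 0.99 ± 0.09 and 1.08 ± 0.19. In the IGF axis 5 of 12 fell, Stc2, an inhibitor of the protease that frees IGF, by 2.55 ± 0.11 (adjusted p = 6.74e-08) and the binding proteins Igfbp4 and Igfbp6 by 1.37 and 0.82. Without Pappa2, which passed the filter only through the vehicle libraries, 4 of 11 fell.

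Of 39 mesenchymal and developmental transcription factors, 6 rose (15.4%, where 15.7% of all tested genes rose) and 14 fell (35.9%, against 14.9%). Scx, the tendon factor scleraxis that drives type I collagen genes, stood at 7.03, 8.95 and 8.09 CPM with vehicle and 1.45, 2.18 and 1.19 CPM with YWCH-4A and fell by 2.30 ± 0.21 (adjusted p = 1.63e-05). Snai2 fell by 1.92 ± 0.28, Klf2 by 1.93 ± 0.21 and Klf4 by 0.99 ± 0.15. Twist2, Prrx2 and Tbx3 rose by 0.74, 0.43 and 0.49. Prrx1, Twist1 and Zeb1 were not called (adjusted p = 0.422, 0.193 and 0.571).

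Immediate-early and stress factors were mixed, 12 higher and 9 lower of 38. Among AP-1 subunits, Fosl1 stood at 90.6, 109 and 90.4 CPM with vehicle and 42.9, 42.3 and 41.3 CPM with YWCH-4A. Jun stood at 129.8, 134 and 125 CPM with vehicle and 77.2, 72.7 and 77.3 CPM with YWCH-4A. Both fell, by 1.20 ± 0.08 and 0.78 ± 0.06 (adjusted p = 1.57e-06 and 3.91e-06). Fos fell by 2.40 ± 0.31, and Junb rose by 0.55 ± 0.09 (adjusted p = 0.00082). Myc fell by 1.40 ± 0.08 (adjusted p = 3.6e-07). Cebpb and Cebpd, C/EBP factors of the acute phase response, rose by 0.70 ± 0.11 and 1.09 ± 0.09. Of the cytokine feedback genes, Socs3 and Cish rose by 1.15 ± 0.10 and 1.37 ± 0.10. Stat3, Ier3 and Ets2 were not called (adjusted p = 0.152, 0.718 and 0.517).

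**Figure D5:**
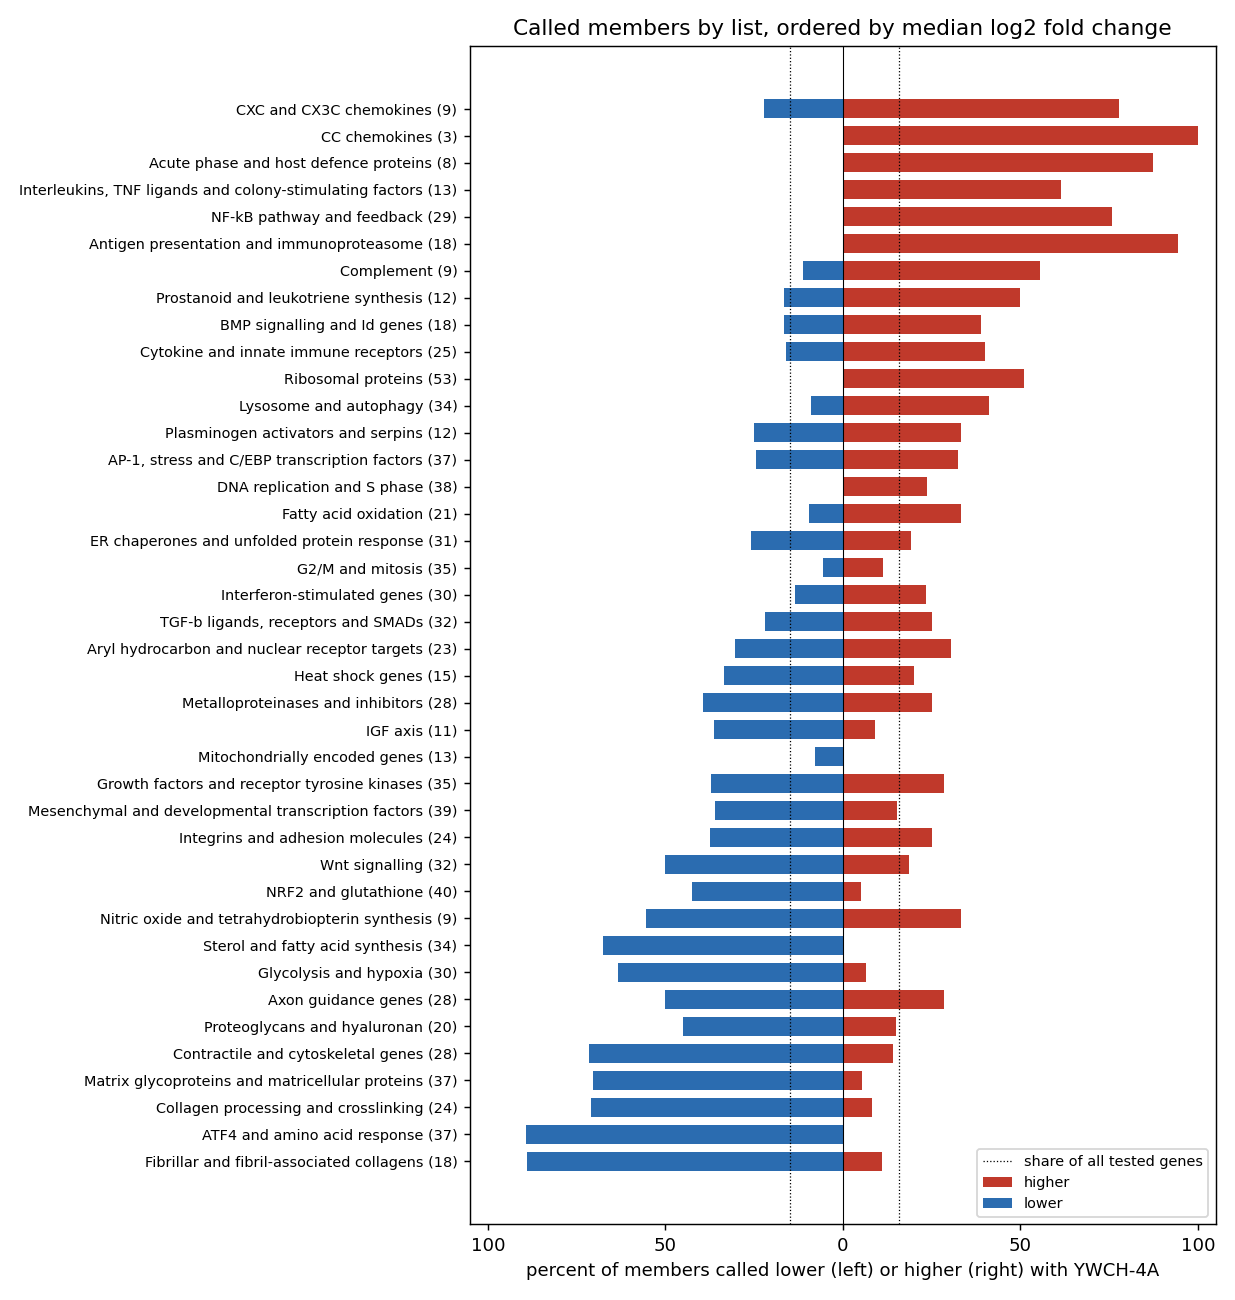
Percentage of genes called higher (red, right) and lower (blue, left) with YWCH-4A in each gene list (horizontal axis), without the members that passed the filter only through 1 group (number left in parentheses), beside the 15.7% higher and 14.9% lower of all tested genes. The lists run from the highest median log2 fold change at the top (CXC and CX3C chemokines, 7 of 9 higher) to the lowest at the bottom (collagens, 16 of 18 lower).

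ATF4 is a transcription factor made when amino acids run short or other stresses slow translation, and it drives genes for amino acid import, serine, glycine and proline synthesis and the charging of transfer RNAs. Proline and glycine are the main residues of collagen. Of 37 genes of this list 33 fell and 0 rose (median -0.93), and 34 were lower than with YEXX-2A, against 15.1% of all tested genes. The promoter of Chac1 is shown because this gene fell most. These are the 250 bases before its start in RefSeq (GRCr8, plus strand), with the ATF4 element in capitals.
Chac1: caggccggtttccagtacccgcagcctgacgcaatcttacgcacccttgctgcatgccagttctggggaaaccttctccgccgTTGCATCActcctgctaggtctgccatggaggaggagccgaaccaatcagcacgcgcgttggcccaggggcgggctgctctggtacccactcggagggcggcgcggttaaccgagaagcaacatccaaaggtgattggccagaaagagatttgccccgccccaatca
The element was searched as TGATGNAA on both strands. It occurred in 1048 of 27457 promoters (3.82%), in 12 of 31 of the list called lower and in 1 of 3 not called. Windows around further matches, which lay 21 bases before the start in Trib3, 131 in Pycr1, 24 in Iars1, 17 in Mars1 and 14 in Nars1, show that the element occurs on either strand.
Trib3: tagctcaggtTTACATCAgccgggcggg
Pycr1: gtcctgtgtaTGATGCAAtgtacaaggc
Iars1: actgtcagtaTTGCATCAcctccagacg
Mars1: cccgttccggTTGCATCAgcgtgggctc
Nars1: ctaggtgatcTGATGCAAcgcttcagtc

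Chac1, an enzyme that degrades glutathione, stood at 72.1, 97.9 and 84.6 CPM with vehicle and 12.8, 11.2 and 12.5 CPM with YWCH-4A. Trib3, a pseudokinase that restrains ATF4 signalling, stood at 104, 161 and 126 CPM with vehicle and 19.7, 20.6 and 22.3 CPM with YWCH-4A. Atf4 itself stood at 615, 737 and 659 CPM with vehicle and 299.8, 302 and 307 CPM with YWCH-4A. All 3 were lower in each YWCH-4A library than in any vehicle library, and fell by 2.80 ± 0.12 for Chac1 (adjusted p = 5.68e-08), 2.64 ± 0.14 for Trib3 (adjusted p = 2.74e-07) and 1.15 ± 0.07 for Atf4 (adjusted p = 8.03e-07) on the log2 scale. Serine and glycine synthesis fell along its length: Phgdh by 1.44, Psat1 by 0.78, Psph by 1.28 and Shmt2 by 1.21. Asns, asparagine synthetase, fell by 1.25 ± 0.06 and Pycr1, the last enzyme of proline synthesis, by 1.47 ± 0.11. Amino acid carriers fell too, Slc7a5 by 1.58, its partner Slc3a2 by 1.12, the glycine carrier Slc6a9 by 1.59 and the cystine carrier Slc7a11 by 2.63. Transfer RNA synthetase genes fell by smaller amounts, among them Tars1 by 0.48 and Sars1 by 0.95. Slc38a2, Cebpg and Nupr1 were not called (adjusted p = 0.0967, 0.105 and 0.254), nor was the proline synthesis gene Aldh18a1, which was close to silent in vehicle libraries 1 and 3 (0.130, 38.1 and 0.0729 CPM with vehicle and 44.5, 55.0 and 35.2 CPM with YWCH-4A, adjusted p = 0.492).

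Of 40 genes of the NRF2 antioxidant and glutathione list, 17 fell and 2 rose (median -0.33). Nqo1, a quinone reductase and standard NRF2 target, stood at 495, 588 and 511 CPM with vehicle and 102, 103 and 107 CPM with YWCH-4A and fell by 2.35 ± 0.08 (adjusted p = 1.28e-08). It stood at 533, 535 and 605 CPM in the YEXX-2A libraries (difference -2.42 ± 0.08, adjusted p = 1.29e-08). Hmox1, heme oxygenase 1, fell by 1.14 ± 0.09, and Tkt, the transketolase gene of the pentose phosphate pathway, by 0.92 ± 0.09. The glutathione transferase Mgst3 rose by 1.70 ± 0.12 (adjusted p = 1.82e-06). Other standard targets were not called, among them Txnrd1, Gclc and Gclm (adjusted p = 0.244, 0.079 and 0.918), and Gclc was called lower without vehicle library 2 (-0.52, adjusted p = 4.41e-06) and with DESeq2. The antioxidant response element TGACNNNGC occurred in 12.2% of all promoters (3342 of 27457), in 3 of 13 of the list's promoters called lower and in 3 of 15 not called.

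Of 34 sterol and fatty acid synthesis genes, 23 fell and 0 rose (median -0.37). Against YEXX-2A 28 of them were lower, where 15.1% of all tested genes were. Fdps, farnesyl diphosphate synthase, stood at 473, 518 and 433 CPM with vehicle and 295, 292 and 299 CPM with YWCH-4A and fell by 0.68 ± 0.07 (adjusted p = 4.25e-05). Hmgcs1, an early enzyme of cholesterol synthesis, stood at 109, 71.8 and 112 CPM with vehicle and 53.5, 54.0 and 56.5 CPM with YWCH-4A and at 159.7, 176 and 158 CPM with YEXX-2A, and fell by 0.84 ± 0.14 against vehicle (adjusted p = 0.00116; difference from YEXX-2A -1.59 ± 0.14, adjusted p = 1.41e-05). The desaturases Scd2, Scd and Fads2 fell by 0.87, 0.89 and 0.96, where reads of Scd and Scd2 may be split between related copies. Fasn and Acaca were not called (adjusted p = 0.192 and 0.867). The sterol response element TCACNCCAC, held by 1.13% of all promoters, was in 0 of 17 promoters of the list's genes called lower, which says only that these letters were not in that window.

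Of 31 genes of glycolysis and the hypoxia response, 19 fell and 2 rose (median -0.42). Direct tests put 3 of the 31 lower than with YEXX-2A and 7 higher, where 15.1% and 16.2% of all tested genes were. Pgk1 stood at 654, 749 and 687 CPM with vehicle and 410.0, 400.0 and 408 CPM with YWCH-4A and fell by 0.78 ± 0.06 (adjusted p = 5.37e-06). Its difference from YEXX-2A was -0.20 ± 0.06 (adjusted p = 0.0329). Ldha, lactate dehydrogenase A, fell by 0.46 ± 0.06 (adjusted p = 0.000142). Ca9, a carbonic anhydrase induced by hypoxia, fell by 1.82 ± 0.10 (adjusted p = 3.25e-07). Egln3, a prolyl hydroxylase that marks hypoxia-inducible factors for degradation, stood at 49.3, 53.9 and 49.9 CPM with vehicle and 215, 205 and 208 CPM with YWCH-4A and rose by 2.04 ± 0.09 (adjusted p = 5.05e-08). Ldhb rose by 0.61 ± 0.12, and Ndrg1, Hif1a and Eno2 were not called (adjusted p = 0.301, 0.888 and 0.154).

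In fatty acid oxidation 7 of 21 genes rose and 2 fell. Cpt1a, the gate of fatty acid entry into mitochondria, stood at 151, 152 and 147 CPM with vehicle and 318, 299 and 306 CPM with YWCH-4A and rose by 1.04 ± 0.06 (adjusted p = 2.56e-07). Among nuclear receptor and aryl hydrocarbon receptor targets, 7 rose and 7 fell of 23. Hsd11b1, which regenerates active glucocorticoid inside cells, stood at 56.4, 47.3 and 56.5 CPM with vehicle and 284, 291 and 290.2 CPM with YWCH-4A and rose by 2.43 ± 0.08 (adjusted p = 5.88e-09), while the glucocorticoid targets Fkbp5, Tsc22d3 and Sgk1 fell by 0.44, 0.62 and 0.63. Cyp1b1 rose by 2.07 ± 0.17 (adjusted p = 7.43e-06), and Ahr was not called (adjusted p = 0.0568).

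Stress of the endoplasmic reticulum and heat shock showed no common direction. Of 31 chaperone and unfolded protein response genes, 6 rose and 8 fell (10 and 10 without vehicle library 2, 3 and 8 with DESeq2 size factors, 2 and 8 with the replicate block, 15 and 5 on log2(FPKM + 1)), and of 15 heat shock genes 3 rose and 5 fell. The chaperone Hspa5 was not called (0.21 ± 0.07, adjusted p = 0.0503, and called higher in 5 of 19 alternatives, from 0.15 without vehicle library 2 to 0.39 on log2(FPKM + 1)), nor was Hsp90ab1 (adjusted p = 0.759). Herpud1 fell by 0.89 ± 0.10 and the small heat shock protein Cryab by 1.10 ± 0.11.

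Of 35 G2 and mitosis genes, 4 rose and 2 fell (7 and 4 without vehicle library 2), against 15.7% and 14.9% of all tested genes. Of 38 replication genes 9 rose (23.7%) and 0 fell, with 12 higher without vehicle library 2 and 25 on log2(FPKM + 1). The proliferation marker Mki67 stood at 127, 81.9 and 107 CPM with vehicle and 88.2, 80.3 and 67.6 CPM with YWCH-4A and was not called (-0.42 ± 0.18, adjusted p = 0.11), and Ccnd1 was not called (0.01 ± 0.05, adjusted p = 0.888). The replication factor Gins1 rose by 0.68 ± 0.10 (adjusted p = 0.000456). The growth arrest genes Gadd45a and Gadd45g fell by 1.74 ± 0.12 and 2.42 ± 0.15 (adjusted p = 1.82e-06 and 6.81e-07), and Mdm2 was not called (adjusted p = 0.349).

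Of 34 lysosome and autophagy genes, 14 rose and 3 fell (median 0.20), and without vehicle library 2 in 20 and 3. Lipa, lysosomal acid lipase, stood at 149.6, 134 and 155 CPM with vehicle and 293, 287 and 291 CPM with YWCH-4A and rose by 0.99 ± 0.07 (adjusted p = 1.96e-06), and the cholesterol exporter Npc1 rose by 0.46 ± 0.07. Of 53 genes for ribosomal proteins, 27 rose and 0 fell (median 0.25), in families where reads can be split between near-identical copies. Vehicle library 2 was lowest for several, such as Rps4x at 516, 388 and 537 CPM with vehicle and 709, 763 and 718 CPM with YWCH-4A (0.60 ± 0.10, adjusted p = 0.00139). Direct tests put 2 of the 53 above YEXX-2A, against 16.2% of all tested genes.

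Of 28 axon guidance genes, which also act in fibroblast migration and vessel growth, 8 rose and 14 fell. The secreted semaphorins Sema3a and Sema3c fell by 2.54 ± 0.25 and 1.67 ± 0.20 and Sema3d by 1.32 ± 0.22, whereas the membrane-bound Sema7a and Sema4a rose by 0.89 ± 0.09 and 1.84 ± 0.24. Sema3a stood at 10.9, 7.76 and 10.6 CPM with vehicle and 1.83, 1.82 and 1.31 CPM with YWCH-4A. Ntn4, a netrin of basement membranes, stood at 5.40, 4.83 and 5.10 CPM with vehicle and 13.8, 15.7 and 14.4 CPM with YWCH-4A, a rise of 1.51 ± 0.14 (adjusted p = 1.68e-05). The co-receptor Nrp1 rose by 0.80 ± 0.15, and Nrp2 was not called (adjusted p = 0.781).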

How the data were processed

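RNA of rat NRK-49F cells was enriched for mRNA with oligo(dT) and made into libraries, per the labels' protocols, 3 libraries each of TGF-β1 with vehicle, YEXX-2A or YWCH-4A. The authors deposited expected counts per gene, estimated values that need not be whole, and FPKM values (fragments scaled for gene length and depth). StringTie 1.3.1, RSEM, DESeq2 and edgeR are named in the submitters' processing notes without a role. Which aligner, build and annotation they used is not given in the sources used here.

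Expected counts were rounded and fitted for all 9 libraries with edgeR 4.0.16 (R 4.3.3), using the quasi-likelihood test with robust dispersion, TMM factors and a filter on low counts with a minimum count of 10. Standard errors are the log2 fold change divided by the root of the F statistic. Total counts were 13675880 to 21923706 per library, and intervals on counts cover counting error only. DESeq2 1.42.0 and limma 3.58.1 served as alternatives, beside other scalings, filters, samples and leave-one-out fits.

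The gene lists (46 lists, 1388 entries, of which 1329 were matched by symbol and 20 through a RefSeq synonym, with 1302 distinct genes) and the named genes were chosen with earlier results of these data known. The text names the 15 largest called rises and falls with no overlap and at least 1 CPM, the near-silent genes, the 10 largest called rises and falls in CPM, and per list those with the smallest p, the most abundant not called and those against the list's direction, with fibrosis and inflammation genes fixed by name. Others were named for their role, and some genes are not reported here. Promoters come from RefSeq (GRCr8).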

Additional observations from a re-analysis of the deposited data

How the results depend on the processing

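No call against vehicle reversed under any alternative run. The count of 3516 genes ranged from 2450 (without YWCH-4A library 2) to 4588 (without vehicle library 2) when single libraries were left out, was 2749 with the 2 groups fitted alone, 3654 with DESeq2, 3584 with limma-voom and 3417 with no filter. On log2(FPKM + 1), limma called 3670 genes higher and 1030 lower, and 410 with at least a 2-fold change, and medians of the lists for growth factors, IGF axis, integrins, mesenchymal transcription factors, metalloproteinases and mitochondrial genes changed sign there, as did that of 1 list not reported here. Of 60 genes named as not called, 32 were called under at least 1 of 19 alternatives, 19 of them on log2(FPKM + 1), all higher. Without vehicle library 2, 11 were called higher (Fasn, Hspa5, Ier3, Ifi27, Itga5, Pdgfrb, Rela, Slc38a2, Stat3, Tagln2 and Traf2) and 8 lower (Ahr, Cebpg, Gclc, Il33, Itgb1, Lrp6, Ptges3 and Tpm4). Without vehicle library 3, Traf3 was called higher and Irf7 and Ptges2 lower, and without vehicle library 1 Eno2 was called lower. Tested against a 2-fold change, 316 genes remained called, 179 higher and 137 lower. Against YEXX-2A, 5903 genes were called with the 2 groups alone and 2225 (without YEXX-2A library 2) to 6001 (without vehicle library 2) in leave-one-out fits, with 2288 and 2293 without YWCH-4A libraries 1 and 3. Genes near silent with vehicle numbered 0 with no count allowed and 5 with 30 counts asked for, and 12 to 24 with single libraries left out (24 and 20 without vehicle libraries 1 and 2, 18 without YWCH-4A library 1 or 3). Those near silent with YWCH-4A numbered 1 under both and 4 to 7 (7 without YWCH-4A library 1 or 3). Leaving a library out loosens the near-silent rule, so in those runs both numbers could only stay or rise. The cause of the other shifts was not tested.

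Same-numbered libraries were not more alike than others. Deviations from the group means correlated at 0.000183, -0.167 and -0.160 for same-numbered vehicle and YWCH-4A libraries, and from -0.111 to 0.182 for differently numbered ones. With 3 libraries in a group these values cannot show whether libraries were paired. With the replicate number as a block, 2787 genes were called (1396 higher, 1391 lower, 683 at least 2-fold), and 2612 against YEXX-2A. Genes under about 1 CPM rest on few counts, and for those near silent counts and pooled ratios with counting intervals are given in place of fitted changes.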
